A study of Mus musculus with 2 samples.

Results

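The neuronal microRNAs (miRNAs) miR-128, miR-129, miR-138 and miR-218 are each made from a pair of genes in the mouse genome, and these 8 hairpin genes are described here. They were taken by name from the GENCODE M21 annotation of the mm10 genome: Mir128-1, Mir128-2, Mir129-1, Mir129-2, Mir138-1, Mir138-2, Mir218-1 and Mir218-2, 8 of 2202 miRNA genes. The tissue was labelled a layer of hippocampus, without naming the layer, and came from females of the hybrid B6CASTF1/J, whose age was 18 to 20 months. This is the first generation of a cross between a B6 and a wild-derived CAST strain, and no treatment or genotype was contrasted. Small RNA of under 30 nt was sequenced in 2 libraries, biological replicates 1 and 2 of 1 group. The tissue records differ in animal number and name a common donor record, so the spread between the libraries may be partly technical.

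A miRNA gene is transcribed as a hairpin, from which Drosha and then Dicer cut a duplex of a pair of mature arms, named 5p and 3p. One arm is loaded into Argonaute and pairs with messenger RNAs mainly through its seed, bases 2 to 8. miR-128 is known for restraining the excitability of neurons, miR-129 for repressing a potassium channel at dendrites, miR-138 for its action on dendritic spine size, and miR-218 for its part in motor neurons and in neuronal excitability. Gene duplication has left each of them with a pair of hairpins whose functional arm is alike, so that either gene can supply the same silencing RNA.

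The arm that both copies of a pair share is printed first, from RefSeq (GRCm38.p6), because it decides which reads can be assigned to a copy. All 8 hairpins and 15 mature arms of these genes were matched in RefSeq by symbol. For Mir129-1 only miR-129-5p was found there, so a 3p arm of Mir129-1 is neither printed nor drawn below. Capitals mark the seed.
miR-128-3p: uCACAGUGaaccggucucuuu
miR-129-5p: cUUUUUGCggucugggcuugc
miR-138-5p: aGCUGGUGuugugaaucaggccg
miR-218-5p: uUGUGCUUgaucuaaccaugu

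The 4 shared arms have 4 different seeds, so the 4 miRNAs are not 1 seed family. Among 1738 mature arms in the RefSeq table, 0 others carry the seed of miR-128-3p, miR-129-5p or miR-138-5p. The seed of miR-218-5p occurs in 1 other arm, miR-7002-3p, whose gene Mir7002 had 0 counts in both libraries.

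The arms that are named for 1 copy are printed next, because reads from them can tell the copies apart. Capitals again mark bases 2 to 8.
miR-128-1-5p: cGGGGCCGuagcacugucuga
miR-128-2-5p: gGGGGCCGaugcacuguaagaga
miR-129-2-3p: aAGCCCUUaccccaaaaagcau
miR-138-1-3p: cGGCUACUucacaacaccaggg
miR-138-2-3p: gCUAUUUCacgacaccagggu
miR-218-1-3p: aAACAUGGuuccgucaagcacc
miR-218-2-3p: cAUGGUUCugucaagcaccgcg

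The 5p arms of the Mir128 copies have the same seed although they differ by 7 edits (substitutions, insertions or deletions) in all. The 3p arms of the Mir138 copies differ by 5 edits and those of the Mir218 copies by 7, and in both pairs the seeds differ.

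The whole hairpins show how much of each copy is found in the other, in capitals wherever a run of 18 or more bases occurs in both.
Mir128-1: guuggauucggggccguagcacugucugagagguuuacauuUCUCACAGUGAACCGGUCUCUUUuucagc
Mir128-2: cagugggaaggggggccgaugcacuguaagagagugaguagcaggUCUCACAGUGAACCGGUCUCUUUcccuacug
Mir129-1: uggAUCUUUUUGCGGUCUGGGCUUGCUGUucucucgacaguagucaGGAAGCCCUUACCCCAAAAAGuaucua
Mir129-2: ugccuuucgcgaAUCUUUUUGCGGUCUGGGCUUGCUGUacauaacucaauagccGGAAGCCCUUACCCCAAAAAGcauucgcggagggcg
Mir138-1: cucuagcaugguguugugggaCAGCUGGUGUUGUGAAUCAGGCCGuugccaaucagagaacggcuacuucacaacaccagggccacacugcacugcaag
Mir138-2: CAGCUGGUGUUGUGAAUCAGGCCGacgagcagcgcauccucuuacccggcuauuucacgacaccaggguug
Mir218-1: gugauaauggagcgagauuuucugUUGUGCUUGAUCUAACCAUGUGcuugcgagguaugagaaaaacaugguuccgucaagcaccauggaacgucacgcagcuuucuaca
Mir218-2: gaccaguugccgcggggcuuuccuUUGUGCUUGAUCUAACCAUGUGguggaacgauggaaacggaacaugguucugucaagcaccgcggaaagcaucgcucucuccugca

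In 3 pairs the identity ends close to the shared arm. The run common to both Mir128 hairpins has 23 bases, with 2 bases before miR-128-3p and 0 after it. The next base is u in Mir128-1 and c in Mir128-2, so a read that follows its hairpin 1 base further fits only that hairpin. Whether the last bases of the reads came from the hairpin was not tested, in any of the pairs. The Mir138 run has 24 bases, with 1 before the arm and 0 after, and the Mir218 run has 22 bases, with 0 before and 1 after. The Mir129 pair differs from these: its hairpins share a run of 26 bases around miR-129-5p, 2 before and 3 after it, and a second run of 21 bases that holds all but the last 3 bases of miR-129-2-3p. Shared runs thus cover 64.4% of the Mir129-1 hairpin and 52.2% of Mir129-2, against 20.0% to 33.8% of the other 6 hairpins. Of all 22-base windows, 9.62% of those in Mir129-1 and 7.25% of those in Mir129-2 occur in the other copy, against 1.12% to 6% in the other 6 hairpins.

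A read that lies wholly in such a run matches both hairpins. Reads that fit several genomic places are kept as a separate total in the files, and replicate 1 held 1.20 of them for every counted read and replicate 2 held 1.29. They are in no level below. The levels are those of the reads that were counted at a gene, and each can be lower than the level of the miRNA. The files give 1 count per gene and do not separate 5p from 3p reads. How many of the set-aside reads belong to these 4 miRNAs was not tested.

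**Figure D1:**
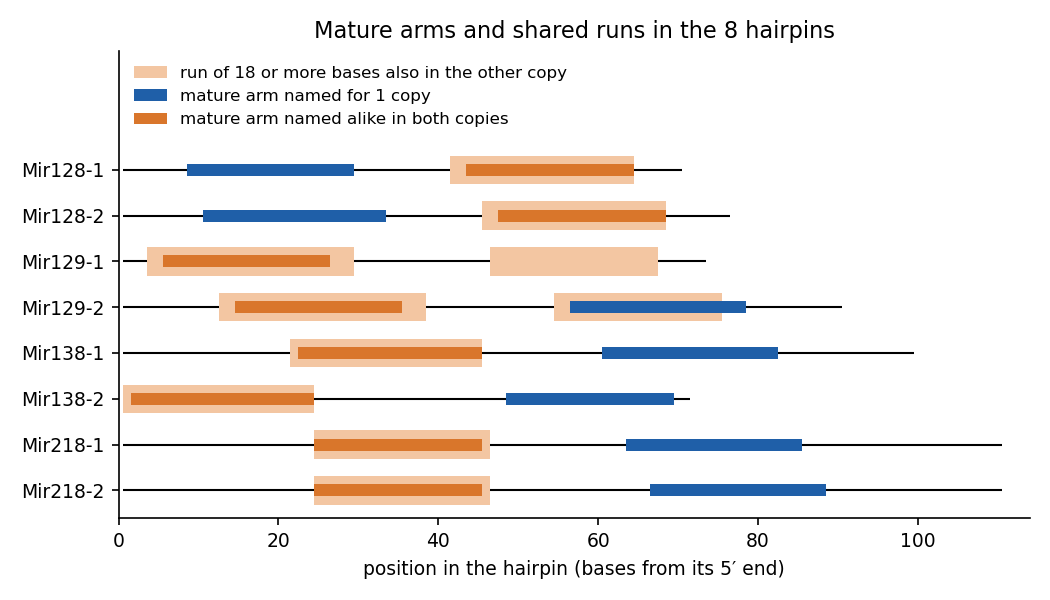
Positions of the mature arms and of the runs shared with the other copy along the 8 hairpins, in bases from the 5′ end (horizontal axis). Orange bars are arms named alike in both copies, and blue bars are arms named for 1 copy. Pale bars are runs of 18 or more bases that the other copy also holds. The Mir129 hairpins have 2 such runs each, the other hairpins 1. A 3p arm of Mir129-1 was missing from the sequences used and is not drawn.

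The copies of a pair lie far apart, and 4 of the 8 genes lie in introns of protein-coding genes. Mir128-1 (ENSMUSG00000065520.2; chromosome 1, 128202361 to 128202430, plus strand) lies in intron 19 of 26 of R3hdm1, and Mir128-2 (ENSMUSG00000065441.2; chromosome 9, 112118636 to 112118711, minus strand) in intron 19 of 20 of a principal transcript of Arpp21. R3hdm1 and Arpp21 are related genes that encode proteins with the R3H RNA-binding domain, and Arpp21 is known for its high expression in forebrain neurons. Within these introns the places differ: Mir128-1 starts 5263 bases after the upstream exon in an intron of 14107 bases, and Mir128-2 starts 471 bases after it in an intron of 51873 bases.

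The Mir218 copies sit at the same place of a pair of related genes. Mir218-1 (ENSMUSG00000065603.1; chromosome 5, 48223942 to 48224051, plus strand) lies in intron 14 of 35 of the principal transcript of Slit2. Mir218-2 (ENSMUSG00000065583.1; chromosome 11, 35616816 to 35616925, plus strand) lies in intron 14 of 35 of Slit3. Slit proteins are secreted axon guidance cues that act through Robo receptors. The Slit2 intron has 4572 bases and the Slit3 intron 9571 bases.

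The other 4 genes lie in noncoding transcripts. Mir129-1 (ENSMUSG00000065469.1; chromosome 6, 29022619 to 29022691, plus strand) lies in an exon of the long noncoding RNA Gm3294, and its nearest coding gene is Lep, 37529 bases away. Mir129-2 (ENSMUSG00000065511.1; chromosome 2, 94241364 to 94241453, minus strand) lies in an intron of Mir670hg, a noncoding host gene that also spans Mir670, 19847 bases away. Mir670 itself had 9 counts in replicate 1 and 14 in replicate 2, or 3.99 and 3.10 CPM. Mir138-1 (ENSMUSG00000065414.1; chromosome 9, 122682876 to 122682974, plus strand) lies in exon 1 of 2 of Gm47135, annotated as a transcribed pseudogene. Mir138-2 (ENSMUSG00000065512.3; chromosome 8, 94324311 to 94324381, plus strand) lies in the single exon of the noncoding RNA C78859, 4820 bases from Slc12a3. All 8 genes are on the strand of their host. Host transcripts were not measured in these small RNA libraries, so no level of a host gene stands beside those of the miRNAs.

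Replicate 1 held 2255838 sense counts in miRNA genes and replicate 2 held 4521208, where a sense count is a read on the strand of the gene. The meaning of the strand columns was read from their values. CPM below are sense counts scaled to a library total of 1000000, and a count of 0 would allow up to 1.33 CPM in replicate 1 and 0.664 CPM in replicate 2. Intervals are exact 95% Poisson intervals, which cover counting error only, since reads without molecular identifiers are not independent molecules. The libraries differed in mapping: 29.0% of the reads of replicate 1 and 11.2% of those of replicate 2 were unmapped, and 36.2% and 47.9% were multimapping. Among 10 listed neuron markers, Mir132 and Mir137 were the highest in both libraries, while Mir153, Mir212 and Mir384 lay between 286 and 543 CPM. The sum over the 10 genes was 55008 CPM in replicate 1 and 35395 CPM in replicate 2. Of 8 muscle markers, 5 had 0 counts, while Mir206 had 34 counts in replicate 1 and 119 in replicate 2. Mir499 had 17 and 27 counts, and Mir208a had 2 and 4. The Mir124a copies, defining markers of neurons, held 0 to 13 counts each. Like the counts of the muscle markers, these leave out multimapping reads, so a low count does not show a low level of the miRNA. How many multimapping reads belong to these genes was not tested. In whole tissue, fewer cells of a type and less RNA per cell cannot be told apart.

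All 8 genes were detected well above the floor, and they spanned a wide range of levels. Each of the 8 was at 1 CPM or above in either library, whereas 20.3% of the 2202 annotated genes were so in both. Together they held 2.02% of the sense counts in replicate 1 and 2.37% in replicate 2, or 21958 ± 2533 CPM (SD, n = 2), with the Mir128 pair alone at 15221 ± 3780 CPM. By mean level the order was Mir128-1, Mir138-1, Mir128-2, Mir138-2, Mir129-2, Mir218-2, Mir129-1 and Mir218-1. Mir138-1 and Mir128-2 overlapped in their library values, and so did Mir218-2 and Mir129-1. The other neighbours in this order did not overlap, with 2 values each.

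Mir128-1 was the most abundant of the 8 genes. It had 23541 counts in replicate 1, 10436 CPM (10303 to 10569.8), and 67728 counts in replicate 2, 14980.1 CPM (14868 to 15093), with a mean of 12708 ± 3213 CPM (SD, n = 2). This placed it at rank 18 of all miRNA genes in replicate 1 and rank 15 in replicate 2. Mir128-2, its copy in Arpp21, had 4765 counts or 2112 CPM (2053 to 2173) in replicate 1 and 13174 counts or 2914 CPM (2864 to 2964) in replicate 2. Both copies were higher in replicate 2, and the values of Mir128-2 stayed below those of Mir128-1 in both libraries.

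Mir138-1 and Mir138-2 lay nearest to each other among the pairs. Mir138-1 had 8125 counts or 3602 CPM (3524 to 3681) in replicate 1 and 10786 counts or 2386 CPM (2341 to 2431) in replicate 2. Mir138-2 had 4251 counts or 1884 CPM (1828 to 1942) in replicate 1 and 7532 counts or 1666 CPM (1629 to 1704) in replicate 2. Both copies were higher in replicate 1 on the CPM scale, and all values of Mir138-1 were above all values of Mir138-2.

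On this CPM scale Mir129-2 was steady and Mir129-1 was not. Mir129-2 had 3184 counts or 1411 CPM (1363 to 1461) in replicate 1 and 6227 counts or 1377 CPM (1343 to 1412) in replicate 2. Mir129-1 had 818 counts or 363 CPM (338 to 388) in replicate 1 and 374 counts or 82.7 CPM (74.5 to 91.5) in replicate 2. Mir129-1 was thus the only one of the 8 genes whose count fell in the deeper library.

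The Mir218 pair, whose miRNA is best known from motor neurons, was the lowest. Mir218-2, in Slit3, had 675 counts or 299 CPM (277 to 323) in replicate 1 and 1367 counts or 302 CPM (287 to 319) in replicate 2. Mir218-1, in Slit2, had 134 counts or 59.4 CPM (49.8 to 70.4) in replicate 1 and 185 counts or 40.9 CPM (35.2 to 47.3) in replicate 2. The Slit3 copy was above the Slit2 copy in both libraries. On this CPM scale the Slit3 copy differed between the libraries by less than counting error, which did not hold with every scaling.

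**Figure D2:**
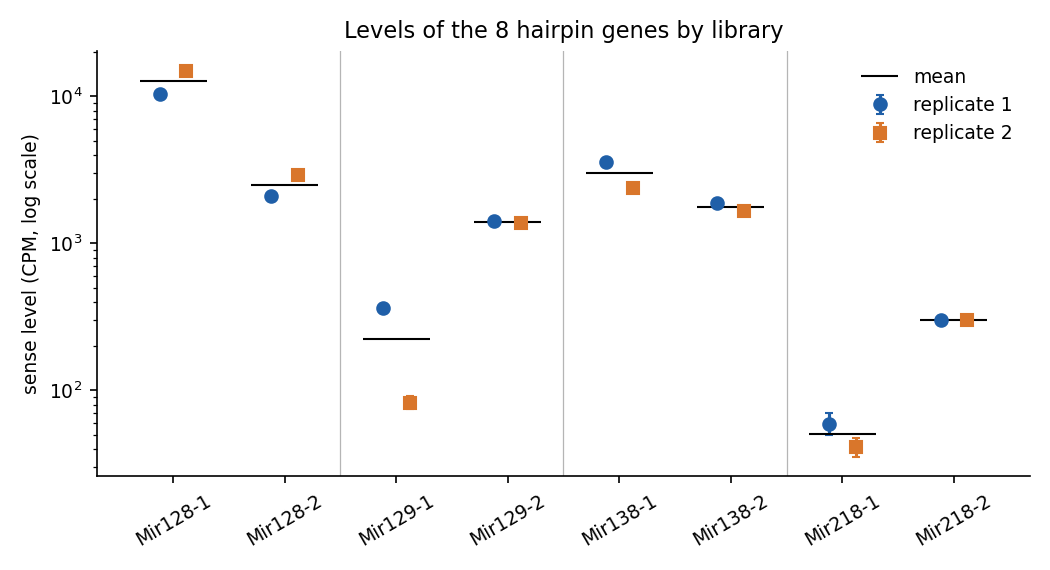
Sense level in CPM (log scale) of the 8 genes in replicate 1 (circles) and replicate 2 (squares), with exact 95% Poisson intervals, many of them smaller than the symbols, and the mean of both as a line. Mir128-1 lies between 10436 and 14980.1 CPM, Mir218-1 between 40.9 and 59.4 CPM, and the values of Mir129-1 are the farthest apart.

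Within each pair the counts were unevenly split, in the same direction in both libraries. Copy 1 held 83.2% (exact 95% binomial interval 82.7 to 83.6) of the Mir128 counts in replicate 1 and 83.7% (83.5 to 84.0) in replicate 2, a mean of 83.4% ± 0.389 (SD, n = 2). The R3hdm1 copy was thus 4.94-fold above the Arpp21 copy in replicate 1 and 5.14-fold above it in replicate 2. The Mir128 split was the steadiest of the 4 pairs, although the level of each copy differed between the libraries.

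For Mir138 the split was the most even. Copy 1 held 65.7% (64.8 to 66.5) of the pair's counts in replicate 1 and 58.9% (58.2 to 59.6) in replicate 2, a mean of 62.3% ± 4.79. Mir138-1 was 1.91-fold above Mir138-2 in replicate 1 and 1.43-fold above it in replicate 2.

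In the Mir218 and Mir129 pairs copy 2 held most of the counts. Mir218-2 held 83.4% of the Mir218 counts in replicate 1 and 88.1% in replicate 2. In counted reads the Slit3 copy was thus 5.04-fold and 7.39-fold above the Slit2 copy. Mir129-2 held 79.6% of the Mir129 counts in replicate 1 and 94.3% in replicate 2, and was 3.89-fold and 16.6-fold above Mir129-1. The Mir129 share of copy 2 was 86.9% ± 10.4 (SD, n = 2), the widest spread of the 4 pairs.

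An exact two-sided paired permutation test of the log2 copy ratio over the 2 libraries gave p = 0.5 for each of the 4 pairs, the smallest p that this design allows, so no split could pass a threshold of 0.05. A share here describes the reads counted at a copy, and whether that copy's own bases placed them was not tested. The copies can also differ in which of their reads are lost to the shared run.

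**Figure D3:**
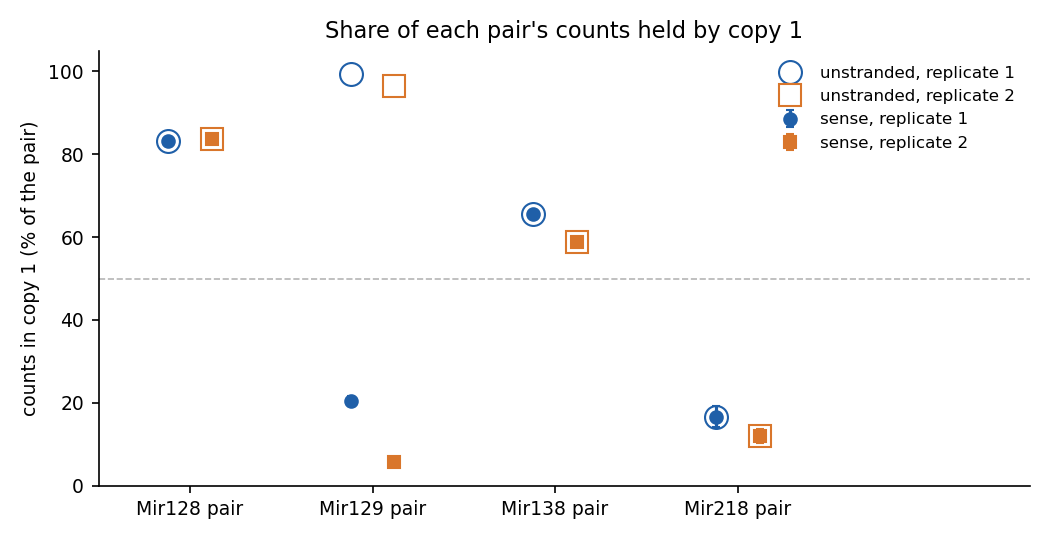
Percent of each pair's counts that copy 1 held, in replicate 1 (circles) and replicate 2 (squares). Filled symbols are sense counts with exact 95% binomial intervals and open symbols the counts taken without strand; the open symbols of the Mir129 pair stand at 99.4% and 96.4%, far from the sense shares of 20.4% and 5.67%.

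The Mir129 split turned over when strand was ignored. Another annotated hairpin gene, Mir129b (chromosome 2, 94241378 to 94241442, plus strand), lies on the opposite strand within Mir129-2 and overlaps it by 65 bases. In the files' column without strand, Mir129-2 held 5 counts in replicate 1 and 14 in replicate 2, or 0.157% and 0.225% of its sense counts. The reads missing there numbered 3179 and 6213, and Mir129b had exactly 3179 and 6213 antisense counts. Mir129b itself had 1 sense count in replicate 1 and 2 in replicate 2, and 0 counts without strand in both. Those missing reads equal 1.77% and 1.48% of the reads that the files list as ambiguous without strand. Without strand, Mir129-1 therefore held 99.4% of the Mir129 counts in replicate 1 and 96.4% in replicate 2. The other 6 genes kept their counts without strand, save Mir218-2, which had 1368 in place of 1367 in replicate 2. Sense counts are used for every other value.

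Between the libraries, 1 of the 8 genes differed 2-fold or more. The mean level was at least 1 CPM for 495 genes, of which 18.2% were lower in replicate 2 by 2-fold or more and 7.68% were higher. With 1 of 8 lower and 0 of 8 higher, the members stand near that background. Mir129-1 was 4.38-fold lower in replicate 2, with a log2 ratio of -2.13 (exact 95% interval -2.31 to -1.95, counting error only). Mir129-2 had a log2 ratio of -0.04 (-0.10 to 0.03). The comparison sets 1 library against 1, has no replicate check and carries no p-value.

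The other genes differed less. Both Mir128 copies were higher in replicate 2 by like amounts, with log2 ratios of 0.52 (0.50 to 0.54) for Mir128-1 and 0.46 (0.42 to 0.51) for Mir128-2. Mir138-1 had a log2 ratio of -0.59 (-0.64 to -0.55) and Mir138-2 of -0.18 (-0.23 to -0.12). Mir218-1 had a log2 ratio of -0.54 (-0.87 to -0.21), and Mir218-2 of 0.01 (-0.12 to 0.15). The members' median was -0.11 and that of all 495 genes -0.19, and the median absolute ratios were 0.49 and 0.51.

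Part of each ratio depends on how the libraries are scaled. The median of all genes moved from -0.19 to -0.07 with edgeR's TMM factors, to 0.00 with DESeq2 size factors and to 0.11 when all reads were the denominator, where 11.1% of the genes were lower and 10.7% higher by 2-fold or more. Relative to the median of all genes, Mir128-1 stood at 0.71, Mir128-2 at 0.65, Mir129-2 at 0.15, Mir138-2 at 0.01, Mir218-2 at 0.20, Mir218-1 at -0.35, Mir138-1 at -0.41 and Mir129-1 at -1.94. The unadjusted ratios of Mir129-2 and Mir138-2 changed sign with scaling, to 0.09 for Mir129-2 with TMM factors and to 0.01 for Mir138-2 with DESeq2 size factors. The ratio of Mir218-2 rose from 0.01 to 0.21 with DESeq2 size factors and to 0.32 with all reads. Both lie outside its counting interval of -0.12 to 0.15.

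The split within a pair does not depend on that scaling, since both copies are read in the same library. The log2 ratio of copy 1 to copy 2 changed by -2.10 (exact 95% interval -2.29 to -1.91, counting error only) for Mir129 from replicate 1 to replicate 2. It changed by -0.55 (-0.91 to -0.19) for Mir218, by -0.42 (-0.49 to -0.35) for Mir138 and by 0.06 (0.00 to 0.11) for Mir128. The Mir129 copies thus parted between the libraries while the Mir128 copies moved nearly together.

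Many listed markers of choroid plexus and ependyma were lower in replicate 2. Of 16 choroid plexus and ependyma markers, 14 had a mean of 1 CPM or more, and 9 of these were 2-fold or more lower in replicate 2 and 0 higher, beside 18.2% lower and 7.68% higher of all 495 genes. Of these 9, Mir211 (4 counts in replicate 1 and 4 in replicate 2), Mir1912 (4 and 2) and Mir141 (18 and 14) rest on few reads. The summed level of the 16 markers was 3604 CPM in replicate 1 and 1656 CPM in replicate 2. Mir204, a defining marker of choroid plexus, stood at 1034 and 799.6 CPM, Mir34c of ciliated cells at 1597 and 366 CPM, and Mir449b had 0 counts. Of the 14, Mir449a (55.4 and 63.9 CPM) and Mir200b (78.5 and 85.4 CPM) were higher in replicate 2, by less than 2-fold. The listed neuron markers also summed lower in replicate 2, at 35395 CPM against 55008 CPM in replicate 1. The part of either set of markers in the Mir129-1 difference was not tested, nor was that of multimapping reads.

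**Figure D4:**
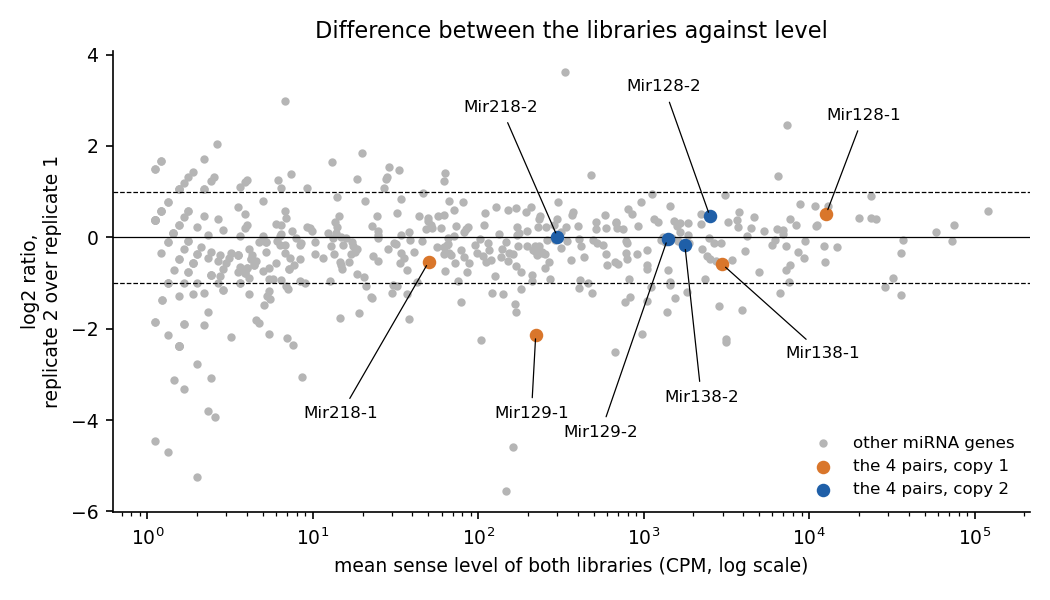
Log2 ratio of replicate 2 over replicate 1 against mean sense level in CPM (log scale) for the 495 genes whose mean was at least 1 CPM, with the 4 pairs in color and dashed lines at 2-fold. Mir129-1, at -2.13, is the only one of the 8 genes outside the dashed lines.

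Among the duplicated miRNA genes of the annotation, 3 of the 4 pairs ranked near the top by counted reads and Mir218 near the middle. Of 52 pairs whose names end in -1 and -2, 26 had a mean of 1 CPM or more for the pair and 22 had 0 counts. Among the 26, the Mir128 pair had the most counted reads, Mir138 was the second, Mir129 ranked 5 and Mir218 ranked 12. Multimapping reads are left out and pairs can lose different parts of their reads to them. This order therefore need not be that of the miRNAs. In 9 of the 26 pairs 1 copy held 90% or more of the counts, and 0 of these 9 were among the 4 pairs. That depends on the cutoff, since the larger copy held 83.4% in Mir128, 86.9% in Mir129 and 85.8% in Mir218. In Mir138 it held 62.3%. The Mir9 pair, 1 of the 9, and the Mir124a pair each leave out a further gene of that name, and Mir9-3 alone had 81.9 CPM on average, above the 14.2 CPM of the Mir9 pair. The larger copy held a median of 84.6% over the 4 pairs and 77.5% over the other 22. No test was made of these differences, and pairs differ in the reads they can lose to shared runs.

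The Mir129 share differed more between libraries than that of most pairs. The share of copy 1 differed by 0.550 percentage points for Mir128, 4.64 for Mir218, 6.77 for Mir138 and 14.8 for Mir129, against a median of 5.11 over the 26 pairs. A larger difference than that of Mir129 was seen in 5 pairs, Mir26a, Mir124a, Mir125b, Mir365 and Mir450, named after their values were seen. The Mir124a, Mir365 and Mir450 pairs rest on few reads, with pair means of 2.77, 1.66 and 1.11 CPM. In 4 of the 26 pairs the larger copy was not the same in both libraries, and the 4 pairs described here were not among them.

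**Figure D5:**
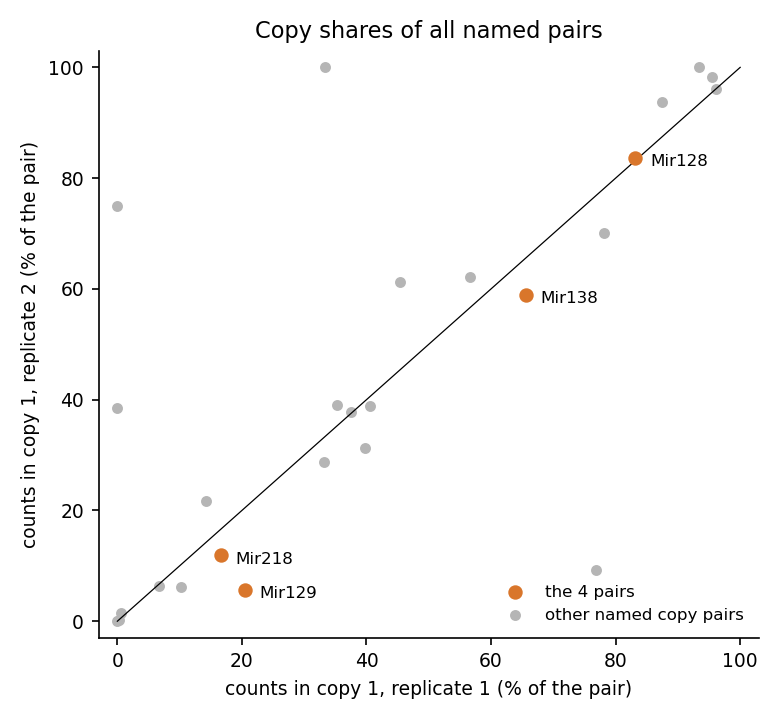
Percent of a pair's counts held by copy 1 in replicate 2 (vertical axis) against replicate 1 (horizontal axis) for the 26 named copy pairs with a mean of 1 CPM or more, with the line of equal shares. The Mir128 pair lies on the line at 83.2% and 83.7%, and the Mir129 pair lies under it at 20.4% and 5.67%.

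Other brain-enriched miRNA genes were mostly detected as well. Of a list of 37, 31 reached 1 CPM in both libraries and 33 had a mean of 1 CPM or more. Of these 33, 6 were lower in replicate 2 by 2-fold or more (Mir132, Mir323, Mir346, Mir410, Mir543 and Mir874) and 2 were higher (Mir9-1 and Mir124a-1), with a median log2 ratio of -0.34. This is near the background of 18.2% lower and 7.68% higher among all 495 genes. The highest was Mir132, which responds to neuronal activity, with 38949 CPM in the library of replicate 1 and 18329 CPM in the other. Mir128-1 lay below Mir132 in both libraries and above Mir137, a miRNA of neuronal maturation, at 10105 CPM and 11969 CPM. By contrast with the 4 pairs, the Mir124a copies lay between 0 and 2.88 CPM, in counts that leave out multimapping reads.

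Genes closest to the larger copy of each pair in both libraries were found by the distance in log2(CPM + 1) over the 2 libraries. For Mir128-1 these were Mir125a (distance 0.11) and Mir26b (0.30), and for Mir129-2 they were Mir130a (0.10) and Mir181d (0.12). For Mir138-1 they were Mir676 (0.17) and Mir338 (0.30), the latter a miRNA of oligodendrocytes, and for Mir218-2 they were Mirlet7f-1 (0.08) and Mir1983 (0.14). With 2 libraries this distance mostly reflects the level.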

How the data were processed

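Small RNA libraries of hippocampal tissue were analysed from the count files deposited by the authors, 1 per library, which hold raw counts per GENCODE M21 miRNA gene on mm10, per the README files deposited with them, in 3 columns, which from their values were read as without strand, sense and antisense. For the aligner and the counter, names and settings were not given in the sources used here. The 4 rows of totals (unmapped, multimapping, unassigned, ambiguous) were kept out of library sizes. They were 69.8% of the reads of replicate 1 and 62.8% of those of replicate 2.

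Sense counts were scaled to CPM on the gene sum. Log2 ratios had 0.5 counts added, and a gene was compared where its mean was at least 1 CPM. Ratio intervals are exact conditional binomial intervals. The counts of the libraries differed far beyond sampling noise (chi-square over degrees of freedom 685 across 413 genes), so they are not repeat deposits of 1 library. This does not show that they came from separate animals. The ratio step was tested on simulated Poisson counts with 200 changed genes. That simulation lacks the spread between the real libraries, so it checks the calculation and not the reliability of 2-fold differences here. Python 3.11.15, SciPy 1.17.1, edgeR 4.0.16 (TMM) and DESeq2 1.42.0 (size factors) were used. Sequences came from RefSeq (GRCm38.p6). Hairpin windows were searched among the annotated hairpins, and a search of the whole genome was not run.

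The members, lists and tests were chosen with earlier results of these data known. Named were all 8 genes, their hosts and miRNA neighbours, arms of equal seed, the 2 genes nearest in level to the larger copy of each pair, and brain-enriched genes that were highest or 2-fold or more apart. Alternatives were the counts without strand, other library sizes, added counts, filters, single libraries, pooled shares and, chosen after seeing the data, shares per hairpin length.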

Additional observations from a re-analysis of the deposited data

How the results depend on the processing

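Of 177 values under the alternatives run, 130 lay within a tolerance of 1 SD between the libraries for levels and shares, of the counting interval for ratios and of 1.5-fold for counts and for shares of all genes. That tolerance is wide where the libraries differ: Mir129-1 was at 82.7 CPM in replicate 2 alone in place of a mean of 223 CPM. A single library always lies within 1 SD of the mean of 2. Levels and shares from single libraries could therefore not fall outside the tolerance, and their place among the 130 carries no information. The larger copy changed in the Mir129 pair. Ratios under 2-fold also changed sign. Mir129-2 went from -0.04 to between 0.09 and 0.27 with other library sizes. Its ratio of 0.42 without strand rests on 5 counts in replicate 1 and 14 in replicate 2. Mir138-2 went from -0.18 to 0.01 and 0.12, and the median of all genes from -0.19 to 0.00 and 0.11. Without strand, copy 1 held 97.9% of the Mir129 counts in place of 13.1%, since nearly all reads of Mir129-2, which Mir129b overlaps on the other strand, are not counted there. With all reads as the denominator the 8 genes summed to 7455 CPM in place of 21958 CPM. With counts divided by hairpin length, chosen after seeing the data, copy 1 held 84.5% of the Mir128 and 54.2% of the Mir138 counts. At 80% in 1 copy in place of 90%, 14 of the pairs in place of 9 were counted, among them Mir128, Mir129 and Mir218. From single libraries the sum ranged from 20167 to 23749 CPM, and the share of copy 1 from 83.2% to 83.7% for Mir128, 5.67% to 20.4% for Mir129, 58.9% to 65.7% for Mir138 and 11.9% to 16.6% for Mir218. Mir129-1 stayed 2-fold or more lower in replicate 2 under all 6 alternatives run for it, and 0 of the 8 genes were 2-fold or more higher under the same 6. Some of the 6 could hardly change the call of Mir129-1. With 1 or 0.1 counts added its ratio stayed at -2.13, and without strand it had the same 818 and 374 counts. Of all genes compared, 12.6% were lower and 4.52% higher by 2-fold or more at a mean of at least 10 CPM, and 24.5% and 14.7% with every counted gene. Low counts leave Mir218-1 the widest interval relative to its level, and how multimapping reads would change the levels was not tested.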
